A study of Mus musculus with 22 samples.

Results

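The genes described here were the 28 listed genes of cholesterol and fatty acid synthesis and their regulators, taken as a list of gene symbols. All 28 were among the 16304 genes counted in whole cells, and 27 were among the 20668 genes counted in nuclei, where Fdps was not analysed. Male ob/ob mice of 11 weeks, which lack functional leptin and are obese and diabetic, were housed singly and received 1 intracerebroventricular (icv) injection of 3 µg FGF1, a secreted growth factor, or of PBS as vehicle, with the vehicle group pair-fed (PF) to match what FGF1 mice ate. Hypothalamic nuclei were counted from 3 FGF1 and 3 vehicle mice on Day 1 and from 2 and 2 on Day 5, and dissociated whole cells came from a further 6 FGF1 and 6 vehicle mice on Day 5. Each library was 1 mouse, so the spread below is that between mice. Every group carried the ob/ob genotype, and no lean group was included, so all differences are between FGF1 and pair-fed vehicle within obese mice.

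Cholesterol is built from acetyl-CoA through the mevalonate arm, then through squalene and a chain of sterol intermediates, while cytosolic fatty acids are built from the same acetyl-CoA by Acly, Acaca and Fasn and are then lengthened and desaturated. SREBP2, the product of Srebf2, drives the sterol genes, SREBP1, the product of Srebf1, leans toward the fatty acid genes, and INSIG1 holds both in the endoplasmic reticulum when sterols are plentiful. In the brain, cholesterol is made locally because plasma lipoproteins do not cross the blood-brain barrier, and astrocytes and myelinating oligodendrocytes are its main makers. Tanycytes are the radial glia that line the floor and lower walls of the third ventricle.

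Total UMI counts per mouse ran from 2652897 to 11866269 in whole cells and from 2721087 to 16345981 in nuclei. Whole cells kept the cluster numbers of the deposited metadata and were called tanycyte-like, astrocyte-like and so on from marker genes. Cluster 0 was called tanycyte-like on 4 of 9 tanycyte markers (Col23a1, Crym, Vcan and Frzb), and it also met 3 of 7 ependymal markers. Cell numbers per cluster differed strongly by treatment. Cluster 1 held 1531 FGF1 and 7940 vehicle cells, whereas cluster 4 held 3412 and 697. Cluster 7 held 2721 and 590 in the mice with at least 10 cells there. Levels are UMI counts summed per mouse and cluster and scaled to a common library total (CPM), with TMM scaling where FGF1 and vehicle mice are compared and without it for vehicle levels and for sums over genes. They compare mice or cell types for 1 gene, and a lower level in such a sum cannot be told apart from a shift toward cells with less of that RNA within the cluster. Between 2 libraries of different batches, 7 to 81 whole-cell barcodes and 0 to 32 nucleus barcodes had the same sequence. Within a batch the ranges were 10 to 66 and 2 to 8. Random draws from the same barcode list would share 77.3 where 81 were seen and 38.9 where 32 were seen. Whole-cell vehicle mice 20 and 35 shared 70 against 39.9.

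The promoters of 4 members called in more than 1 cell group are shown because their changes recur below. Each runs from 250 bases before to 50 after the start of transcription (RefSeq, GRCm38.p6), read on the gene's strand. Capitals mark the sterol regulatory element core TCACNCCAC and the CCAAT box on either strand, where SREBPs and their partner NF-Y are known to bind.
Hmgcs1 (chr13:119690101-119690400, plus strand): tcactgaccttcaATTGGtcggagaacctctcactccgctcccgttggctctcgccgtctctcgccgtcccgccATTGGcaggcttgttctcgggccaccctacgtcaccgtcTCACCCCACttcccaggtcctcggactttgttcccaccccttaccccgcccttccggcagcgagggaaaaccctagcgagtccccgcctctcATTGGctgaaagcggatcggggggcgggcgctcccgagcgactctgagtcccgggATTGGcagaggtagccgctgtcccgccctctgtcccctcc
Idi1 (chr13:8885356-8885655, plus strand): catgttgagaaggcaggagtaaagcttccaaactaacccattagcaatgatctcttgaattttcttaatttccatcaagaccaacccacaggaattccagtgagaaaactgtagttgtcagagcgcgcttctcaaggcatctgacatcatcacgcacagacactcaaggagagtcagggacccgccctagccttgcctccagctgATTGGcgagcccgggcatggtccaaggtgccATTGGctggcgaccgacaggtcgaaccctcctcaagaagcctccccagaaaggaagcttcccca
Msmo1 (chr8:64733529-64733828, minus strand): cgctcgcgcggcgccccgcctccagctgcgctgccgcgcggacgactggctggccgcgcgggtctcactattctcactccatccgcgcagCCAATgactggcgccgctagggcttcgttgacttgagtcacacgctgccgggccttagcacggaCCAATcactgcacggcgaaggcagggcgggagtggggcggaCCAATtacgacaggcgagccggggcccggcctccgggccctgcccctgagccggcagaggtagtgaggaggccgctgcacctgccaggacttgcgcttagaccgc
Fasn (chr11:120824498-120824797, minus strand): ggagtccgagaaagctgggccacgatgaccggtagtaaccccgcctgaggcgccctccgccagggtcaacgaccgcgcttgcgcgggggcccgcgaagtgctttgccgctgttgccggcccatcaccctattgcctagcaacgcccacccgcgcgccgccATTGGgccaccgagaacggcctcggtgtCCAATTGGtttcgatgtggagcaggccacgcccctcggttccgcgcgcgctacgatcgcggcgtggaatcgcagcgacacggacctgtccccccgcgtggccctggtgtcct
In these windows Hmgcs1 carried 1 sterol regulatory element core, TCACCCCAC, and 4 CCAAT boxes, Msmo1 and Fasn 3 CCAAT boxes each, and Idi1 2. Windows were at hand for 22 of the 28 members, leaving out Fdps, Fdft1, Sqle, Stard4, Scd1 and Scd2. The core TCACNCCAC was present in 1 of the 22, against 1.22% of 27025 promoters. CCAAT was present in 18 of 22 against 37.9%, GGGCGG, the Sp1 box, in 17 of 22 against 35.9%, and the E-box CACGTG in 3 of 22 (Hsd17b7, Insig1 and Sc5d) against 7.24%. All were searched on both strands, and in the Fasn window a CCAAT box on each strand shares letters within CCAATTGG. The matches describe letters in the windows and not bound sites.

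In vehicle mice on Day 5, the summed level of all 28 members was highest in oligodendrocyte-like cluster 11 (5570 to 7586 CPM) and astrocyte-like cluster 4 (5084 to 7248 CPM), whose ranges overlapped. Oligodendrocyte-like clusters 2 (4535 to 5674 CPM) and 12 (4253 to 5481 CPM) followed, and then astrocyte-like cluster 1 (3805 to 4919 CPM). Tanycyte-like cluster 0 (2933 to 3737 CPM), OPC-like cluster 5 (oligodendrocyte precursors, 2441 to 3172 CPM) and ependymal-like cluster 6 (1952 to 2735 CPM) were lower. Endothelial-like cluster 3 (1629 to 2398 CPM) and microglia-like cluster 8 (1378 to 2205 CPM) were among the lowest. Much of each sum was Scd2, a stearoyl-CoA desaturase, which averaged 3696 ± 551 CPM (SD, n = 6 mice) in cluster 4, 3577 ± 384 in cluster 11 and 1722 CPM in cluster 0.

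Single members did not all follow that order in vehicle mice. Among clusters with 4 or more vehicle mice, cluster 4 held the highest mean level of 7 members, clusters 11 and 9 of 5 each, clusters 1 and 12 of 4 each and the small unnamed cluster 18 of 3. Scd1 in cluster 4, at 426 ± 105 CPM (SD, n = 6), was the 1 member whose highest cluster did not overlap the next, cluster 12, at 208 ± 52.7 CPM. Msmo1, the sterol C4-methyl oxidase, averaged 315 ± 64.5 CPM (SD, n = 6) in astrocyte-like cluster 1 and 232 ± 101 CPM in cluster 11, within the spread of the mice. Hmgcs1, the cytosolic HMG-CoA synthase of the mevalonate arm, averaged 563 ± 240 CPM (SD, n = 6) in cluster 11 and 299 ± 95.8 CPM in cluster 4, again with overlapping mice. Vehicle mice gave only 17 to 56 cells each in cluster 11, so its levels are less precise. In Day 1 vehicle nuclei, Scd2 averaged 1013 ± 254 CPM (SD, n = 3) in astrocytes, 653 ± 229 in ependymal cells and 578 ± 168 in tanycytes, and from 34.8 to 112 CPM in the neuron types.

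To ask whether the members changed with FGF1 on Day 5, the 16 clusters with enough mice were compared between FGF1 and vehicle mice. In clusters 13, 15 and 16 only Scd2 could be tested, and it did not pass in edgeR. In tanycyte-like cluster 0, 12 of the 27 members tested fell, against 2.64% of all 9441 genes tested, and none rose. The 12 spanned both pathways, with Hmgcs1 and Idi1 of the mevalonate arm and Fasn, Scd2 and Elovl6 of fatty acid synthesis. The other 7 were enzymes of the squalene and sterol arm (Fdft1, Sqle, Cyp51, Msmo1, Nsdhl, Sc5d and Dhcr7). Log2 FC was below 0 for 26 of 27, with a median of -0.64, against a median of 0.003 and 49.5% below 0 over all genes tested. At an unadjusted p under 0.05 there were 24 members, against 19.7% of all genes. Calls are those of edgeR's quasi-likelihood test at a Benjamini-Hochberg adjusted p under 0.05.

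**Figure D1:**
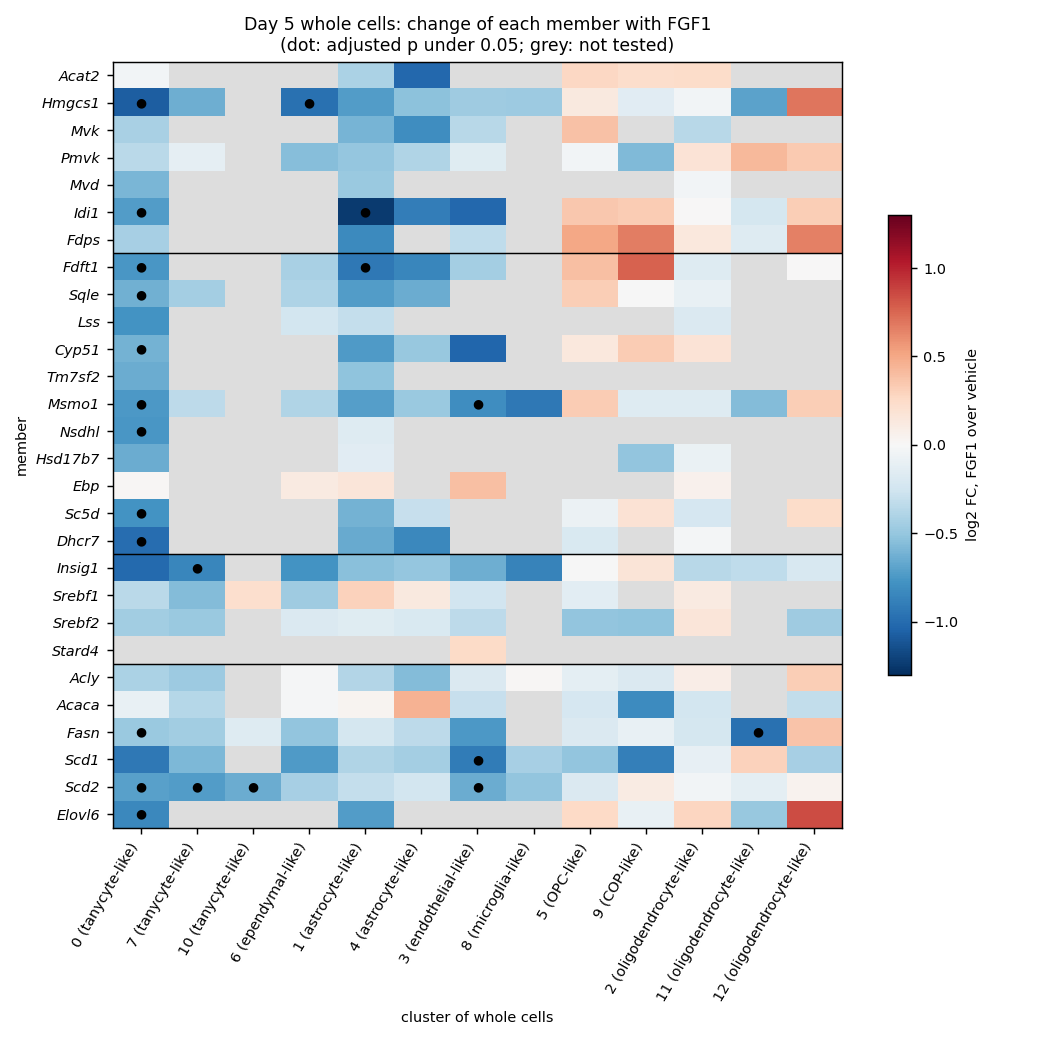
Log2 FC (FGF1 over vehicle) of each member (rows, grouped by role) in each cluster of Day 5 whole cells (columns), where blue is lower with FGF1, dots mark an adjusted p under 0.05 and grey cells were not tested. Of the 22 dots 12 are in cluster 0, all dots are blue, and the columns of clusters 2, 4, 5, 8, 9 and 12 hold both colours and no dot.

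Of the mevalonate arm in cluster 0, all 7 members had a log2 FC below 0 (median -0.43) and 2 fell. Hmgcs1, which condenses acetoacetyl-CoA with acetyl-CoA, stood at 79.9, 108 and 121 CPM (lowest, median and highest of 6 FGF1 mice) and at 178, 214 and 264 CPM in the 6 vehicle mice. No FGF1 mouse overlapped a vehicle mouse, and Hmgcs1 had the smallest adjusted p of the members (log2 FC -1.07 ± 0.125 SE, edgeR adjusted p 2.75e-06). Idi1, which isomerises isopentenyl diphosphate, stood at 22.8, 35.7 and 69.2 CPM with FGF1 and 50.5, 58.3 and 70.7 CPM with vehicle (log2 FC -0.73 ± 0.162, edgeR adjusted p 0.00659). For Idi1 1 FGF1 mouse lay among the vehicle mice and the other 5 lay below them. Mvd, Fdps, Mvk, Pmvk and Acat2 did not pass, with log2 FC from -0.59 for Mvd to -0.03 for Acat2.

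Of the 11 enzymes of the squalene and sterol arm, 10 had a log2 FC below 0 in cluster 0 (median -0.74) and 7 fell. Sqle, squalene epoxidase and a rate-limiting step, stood at 26.6, 44.5 and 51.1 CPM in FGF1 mice and 59.4, 66.5 and 87.4 CPM in vehicle mice, without overlap (log2 FC -0.62 ± 0.138, edgeR adjusted p 0.00652). Sc5d, lathosterol oxidase, also did not overlap, at 14.4, 18.3 and 25.6 CPM against 26.6, 30.1 and 45.9 CPM (log2 FC -0.78 ± 0.190, edgeR adjusted p 0.0137). Msmo1 stood at 57.4, 81.1 and 112 CPM with FGF1 and 101, 135 and 147 CPM with vehicle (log2 FC -0.74 ± 0.143, edgeR adjusted p 0.00197). For Msmo1 5 of 6 FGF1 mice lay below every vehicle mouse.

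Fdft1, squalene synthase, stood at 20.6, 33.2 and 69.2 CPM in FGF1 mice of cluster 0 and 42.6, 59.9 and 67.9 CPM in vehicle mice (log2 FC -0.76 ± 0.176, edgeR adjusted p 0.00978). Its highest FGF1 mouse lay above all vehicle mice, and 4 of 6 lay below them. Dhcr7, the last enzyme of the Kandutsch-Russell branch, stood at 4.48, 7.98 and 13.3 CPM against 11.0, 18.9 and 23.9 CPM (log2 FC -0.99 ± 0.255, edgeR adjusted p 0.0185). Cyp51, lanosterol demethylase, stood at 20.6, 23.0 and 31.9 CPM against 25.1, 38.3 and 40.1 CPM (log2 FC -0.61 ± 0.169, edgeR adjusted p 0.0289). In both genes the highest FGF1 mice reached into the vehicle range. Nsdhl, a sterol dehydrogenase, fell by a similar amount (log2 FC -0.76, edgeR adjusted p 0.0306). Lss, Tm7sf2 and Hsd17b7 did not pass (log2 FC -0.78, -0.65 and -0.64), and Ebp was level at 0.02. Reads of Tm7sf2 may be shared with Vps51, which overlaps it on the same strand, and Fdft1 and Cyp51 overlap Ctsb and Akap9 on the opposite strand.

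Of the 6 fatty acid genes in cluster 0, all had a log2 FC below 0 (median -0.59) and 3 fell. Scd2 stood at 752, 1081 and 1315 CPM in FGF1 mice and 1377, 1689 and 2078 CPM in vehicle mice (log2 FC -0.71 ± 0.121, edgeR adjusted p 0.000577). Fasn, fatty acid synthase, stood at 61.9, 93.4 and 106 CPM against 114, 125 and 134 CPM (log2 FC -0.48 ± 0.124, edgeR adjusted p 0.0195). Neither gene had an FGF1 mouse within the vehicle range. Elovl6, which lengthens 16-carbon chains, was lower too, without overlap between the groups (log2 FC -0.84, edgeR adjusted p 0.0328). Acly, which supplies cytosolic acetyl-CoA, and Scd1 did not pass (log2 FC -0.42 and -0.93, edgeR adjusted p 0.0608 and 0.0737), and Acaca, acetyl-CoA carboxylase, was at -0.10. Scd1 and Scd2 are close paralogs, so the split of reads between them is uncertain.

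None of the 3 regulators tested in cluster 0 passed. Insig1, itself an SREBP target, had a log2 FC of -1.01 (edgeR adjusted p 0.0737), with 5 of 6 FGF1 mice below every vehicle mouse. Srebf1 had a log2 FC of -0.35 (edgeR adjusted p 0.0513), and its groups did not overlap, at 95.8 to 128 CPM with FGF1 and 143 to 176 CPM with vehicle. Srebf2 had a log2 FC of -0.45 (edgeR adjusted p 0.0641). Stard4, which carries cholesterol between membranes, was too low to be tested. In all, the 6 FGF1 mice lay below all 6 vehicle mice for 7 members (Hmgcs1, Sqle, Sc5d, Srebf1, Fasn, Scd2 and Elovl6), against 1.12% of all genes tested.

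**Figure D2:**
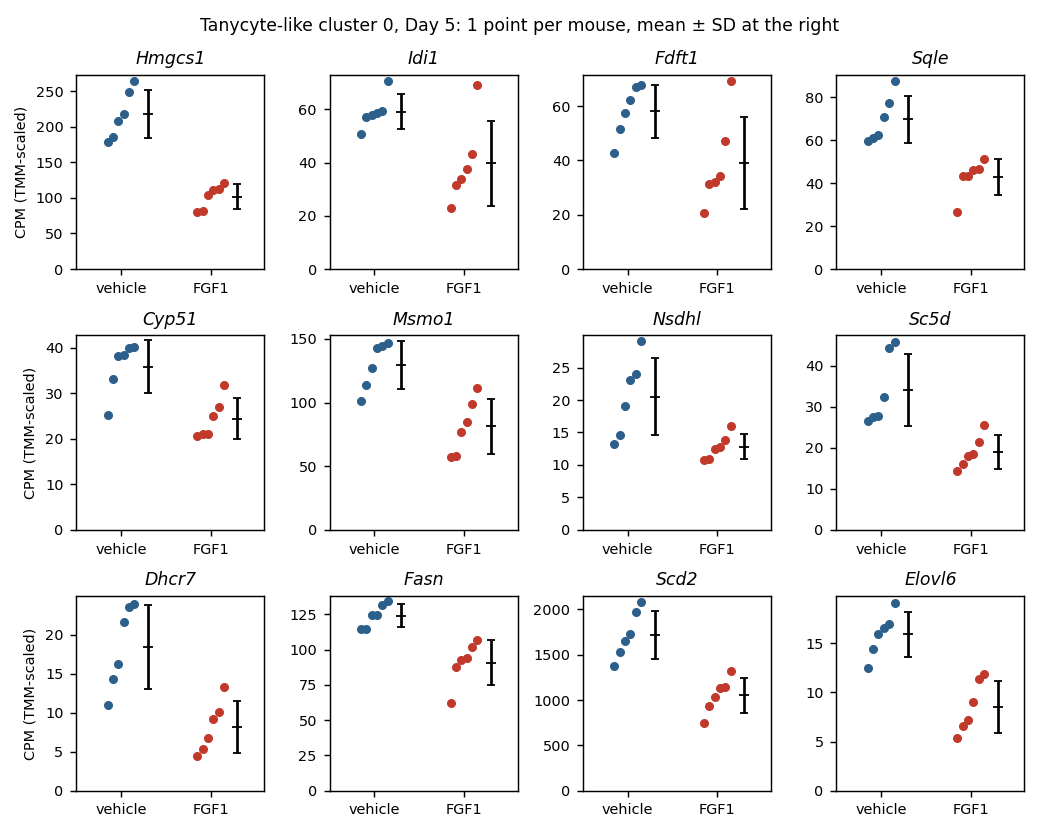
TMM-scaled CPM (y axis, from 0) of the 12 members that fell in tanycyte-like cluster 0, with 1 point for each of 6 vehicle and 6 FGF1 mice, ordered by value, and the mean ± SD to the right. For Hmgcs1, Sqle, Sc5d, Fasn, Scd2 and Elovl6 every FGF1 point is below every vehicle point, and for Idi1 and Fdft1 1 FGF1 mouse at 69.2 CPM lies among or above the vehicle mice.

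The deposited metadata give each whole-cell mouse a batch, 6 in all with 1 FGF1 and 1 vehicle mouse each, without saying what a batch is. Hmgcs1, Scd2, Sqle, Sc5d, Dhcr7, Fasn, Cyp51 and Elovl6 were lower in the FGF1 mouse of all 6 batches, and Msmo1, Idi1, Fdft1 and Nsdhl of 5. Without vehicle mouse 25, the number of members called was 7 in place of 12, and Dhcr7, Fasn, Cyp51, Nsdhl and Elovl6 were lost. Cyp51 was lost in 5, Nsdhl and Elovl6 each in 6 and Fasn in 2 of the 12 leave-one-out fits, with the highest edgeR adjusted p at 0.143 for Elovl6. Cyp51, Elovl6 and Nsdhl were also lost with DESeq2 (adjusted p 0.073, 0.116 and 0.089). With the batch as a block edgeR lost Cyp51 (adjusted p 0.0576) and Elovl6 (0.0511), and within the mitochondrial and ribosomal limit Cyp51 (0.0611) and Nsdhl (0.0537). Elovl6 was lost without the filter on low counts (edgeR adjusted p 0.0507) and Nsdhl with clusters of 1 name merged (0.075). Hmgcs1, Scd2, Msmo1, Sqle, Idi1, Fdft1 and Sc5d held under each of the 18 alternatives run. The summed level of 9 astrocyte markers in cluster 0 was also lower in FGF1 mice, at 3188 to 4258 CPM against 5066 to 6215 CPM, with none of the 9 at 0 in either group. That of 9 tanycyte markers was 1050 to 1493 CPM against 1117 to 1517 CPM. The part of the astrocyte markers in the result was not tested.

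The other tanycyte-like clusters held fewer cells and fewer members could be tested. In cluster 7, 2 of 12 members fell, against 0.968% of all genes, and all 12 had a log2 FC below 0 (median -0.48). Scd2 there stood at 732, 831 and 1124 CPM in 5 FGF1 mice and 948, 1398 and 2188 CPM in 6 vehicle mice (log2 FC -0.73, edgeR adjusted p 0.0177). Insig1 stood at 27.4, 42.0 and 66.0 CPM against 66.3, 83.8 and 156 CPM (log2 FC -0.84, edgeR adjusted p 0.0275), with no overlap, which held for 2 of 12 members against 1.39% of all genes. Neither passed without vehicle mouse 25, and Insig1 was also lost without FGF1 mouse 7 or 21 or without vehicle mouse 22 or 35, the highest edgeR adjusted p being 0.0993. Insig1 was lost as well without the filter on low counts (edgeR adjusted p 0.0802) and with the batch as a block (0.085), and DESeq2 gave it no adjusted p. The summed level of 6 pericyte markers was 24.9 to 35.0 CPM in FGF1 mice of cluster 7 against 11.9 to 22.7 CPM, with Kcnj8 and Abcc9 at 0 in vehicle mice, and its part was not tested. In cluster 10, 1 of 3 members fell, against 1.16% of all genes. This was Scd2, at 783, 859 and 919 CPM against 999, 1382 and 1786 CPM, without overlap, as for 0.834% of all genes (log2 FC -0.64, edgeR adjusted p 0.00881), and the call was lost without the filter (edgeR adjusted p 0.13).

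In ependymal-like cluster 6, which covers the ciliated cells of the ventricle wall, 1 of 15 members fell, against 0.743% of all genes, and 14 of 15 had a log2 FC below 0 (median -0.43). Hmgcs1 stood at 42.4, 49.96 and 79.5 CPM in FGF1 mice and 56.2, 102 and 132 CPM in vehicle mice (log2 FC -0.97, edgeR adjusted p 0.0031). Of the 6 FGF1 mice, 4 lay below every vehicle mouse.

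In astrocyte-like cluster 1, 2 of 27 members fell, against 0.182% of all genes, and 24 of 27 had a log2 FC below 0 (median -0.50). At an unadjusted p under 0.05 there were 14, against 10.0% of all genes. Idi1 stood at 13.9, 33.9 and 56.9 CPM in FGF1 mice and 69.4, 77.4 and 119 CPM in vehicle mice, lower in all 6 batches (log2 FC -1.24 ± 0.221, edgeR adjusted p 0.00129). It was the 1 member of 27 whose groups did not overlap, against 0.586% of all genes. Fdft1 stood at 15.4, 43.1 and 93.6 CPM against 93.3, 117 and 138 CPM (log2 FC -0.92 ± 0.206, edgeR adjusted p 0.0213). Its highest FGF1 mouse just exceeded its lowest vehicle mouse. FGF1 mice gave 40 to 813 cells each in cluster 1 and vehicle mice 423 to 2083. The smallest FGF1 library there held 44014 UMIs, and levels from so few UMIs are less precise. Fdft1 was lost without FGF1 mouse 6 or 10 or without vehicle mouse 20 or 25, with the highest edgeR adjusted p at 0.196. DESeq2 gave an adjusted p for 7 members only, without Idi1 and Fdft1, and called 0. With the batch as a block more members were called in cluster 1, as counted at the end. Astrocyte markers summed to 12020 to 14650 CPM with FGF1 and 12084 to 13809 CPM with vehicle.

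Hmgcs1 and Msmo1 had a log2 FC of -0.73 and -0.72 in cluster 1 without passing, and Srebf1 was at 0.30. In astrocyte-like cluster 4, 17 of 19 members had a log2 FC below 0 (median -0.49), 13 had an unadjusted p under 0.05, against 9.17% of all genes, and 0 passed after adjustment in edgeR. DESeq2 called 0 of the 9 to which it gave an adjusted p. With the 2 astrocyte-like clusters merged, 14 of 28 members fell, against 6.06% of all genes (Acat2, Mvk, Pmvk, Mvd, Idi1, Fdps, Fdft1, Sqle, Msmo1, Nsdhl, Hsd17b7, Sc5d, Dhcr7 and Elovl6). That merged fit mixes cluster 1, mostly vehicle cells, with cluster 4, mostly FGF1 cells.

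In cluster 3, endothelial-like on 7 of 7 markers and also meeting 6 of 6 pericyte markers, 3 of 18 members fell, against 0.585% of all genes, and 16 of 18 had a log2 FC below 0 (median -0.40). Scd2 stood at 452, 620 and 877 CPM in FGF1 mice and 811, 1009 and 1319 CPM in vehicle mice (log2 FC -0.64, edgeR adjusted p 0.0175). Scd1 stood at 41.9, 76.3 and 108 CPM against 99.1, 139 and 204 CPM (log2 FC -0.91, edgeR adjusted p 0.0271). Msmo1 stood at 19.6, 42.6 and 57.1 CPM against 56.4, 72.1 and 92.8 CPM (log2 FC -0.81, edgeR adjusted p 0.0341). For each of the 3 genes, 1 FGF1 mouse reached into the vehicle range. The summed level of astrocyte markers in these endothelial-like cells was 1617 to 2799 CPM with FGF1 and 2593 to 4054 CPM with vehicle, and its part in the result was not tested. None of the 3 passed without FGF1 mouse 7, 10 or 21 or without vehicle mouse 20 or 25, and 1 passed without FGF1 mouse 6. Msmo1 was also lost with DESeq2 (adjusted p 0.0584) and within the mitochondrial and ribosomal limit (edgeR adjusted p 0.0594), and Scd1 with the batch as a block (edgeR adjusted p 0.127).

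Clusters of the oligodendrocyte lineage differed in cell numbers by treatment, and their FGF1 effects were not compared with each other by a test. Cluster 2 held 1799 FGF1 and 5610 vehicle cells, and cluster 11 held 1212 and 166. Cluster 12 held 211 and 952 in the mice with at least 10 cells there. Cluster 9 held 1583 and 164, with only 16 to 51 cells per vehicle mouse. The median SE of the members was 0.338 in cluster 9, against 0.170 in cluster 2. In oligodendrocyte-like cluster 2, 0 of 25 members passed in edgeR, DESeq2 called 0, and 0 had an unadjusted p under 0.05, against 12.0% of all genes, with 15 of 25 below 0 and a median log2 FC of -0.04. Hmgcs1 stood at 169 to 248 CPM with FGF1 and 176 to 292 CPM with vehicle, and Scd2 at 3012 to 3479 CPM against 2933 to 3828 CPM. OPC-like cluster 5 (21 tested, median -0.01) and COP-like cluster 9 (committed precursors, 19 tested, median -0.09) also had 0 calls, with 3 and 2 members at an unadjusted p under 0.05, against 15.9% and 12.5% of all genes. In cluster 11, 1 of 10 members fell, against 3.97% of all genes, while 8 of 10 had a log2 FC below 0 (median -0.28) and 3 had an unadjusted p under 0.05, against 20.1% of all genes. This was Fasn, at 98.0, 131 and 156 CPM against 104, 224 and 383 CPM (log2 FC -0.97, edgeR adjusted p 0.0123), with 5 of 6 FGF1 mice inside the vehicle range, and the call was lost without vehicle mouse 25 or 29 (edgeR adjusted p 0.163 and 0.06) and without the filter on low counts (0.193). With a minimum of 20 cells per mouse, which left 4 vehicle mice, 4 of 17 members were lower there, against 2.98% of all genes. COP markers in cluster 11 summed to 1399 to 1796 CPM with FGF1 and 1888 to 2244 CPM with vehicle, and their part was not tested. Cluster 12 was compared in 4 FGF1 mice, with 19 to 130 cells each, and 6 vehicle mice. There 11 of 15 members were above 0 (median 0.32) and none passed in edgeR. An unadjusted p under 0.05 was found for 3, against 12.4% of all genes. In microglia-like cluster 8, 5 of 6 members tested were below 0 (median -0.49) and none passed in edgeR, with 3 at an unadjusted p under 0.05, against 12.7% of all genes.

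**Figure D3:**
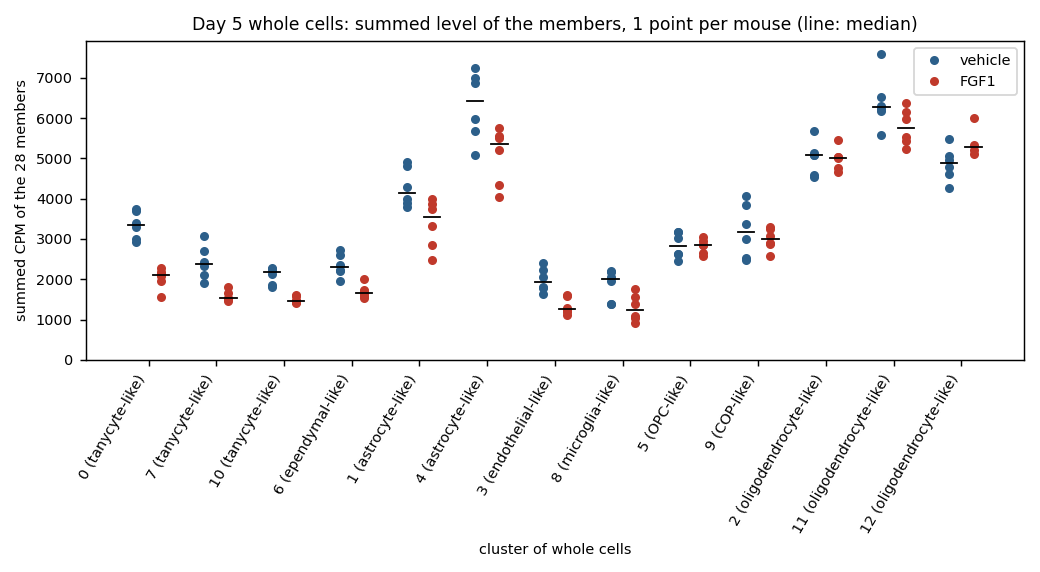
Summed CPM of the 28 members (y axis, from 0) in 13 clusters of Day 5 whole cells, with 1 point per mouse, vehicle in blue and FGF1 in red, and a line at each median. In tanycyte-like clusters 0, 7 and 10 every FGF1 mouse is below every vehicle mouse (1566 to 2282 against 2933 to 3737 CPM in cluster 0), in endothelial-like cluster 3 as well (1103 to 1605 against 1629 to 2398 CPM), whereas in cluster 2 the groups share 1 range (4664 to 5465 against 4535 to 5674 CPM). Much of each sum is Scd2, which fell in clusters 0, 7, 10 and 3. In cluster 10 only 3 members could be tested, and Scd2 alone fell.

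The difference between cell types was itself tested over the 12 mice that gave both clusters, with the mouse as a block. The FGF1 effect was higher in oligodendrocyte-like cluster 2 than in tanycyte-like cluster 0 for 6 of 26 members, against 0.943% of all genes, and the difference was above 0 for 25 of 26 (median 0.52 in log2). The 6 were Hmgcs1 (difference 1.01, edgeR adjusted p 1.45e-05), Scd2 (0.64, 0.000359), Scd1 (0.82, 0.0078), Elovl6 (1.14, 0.0118), Insig1 (0.60, 0.0399) and Cyp51 (0.81, 0.0493). Without vehicle mouse 20 the number was 3. Of the 12 leave-one-out fits, Cyp51 was lost in 10, Insig1 in 8 and Elovl6 in 2, and Hmgcs1, Scd1 and Scd2 were kept in all. Cyp51 and Insig1 were also lost without the filter on low counts (edgeR adjusted p 0.128 and 0.0702), and Insig1 with DESeq2 (adjusted p 0.0601). In cluster 2, tanycyte markers were at 181 to 483 CPM with FGF1 and 68.8 to 145 CPM with vehicle, with Slc17a8 and Adm at 0 in FGF1 mice, and oligodendrocyte markers at 38957 to 47784 CPM against 31032 to 38010 CPM. The part of these markers, and of the unequal cell numbers, in the difference was not tested.

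**Figure D4:**
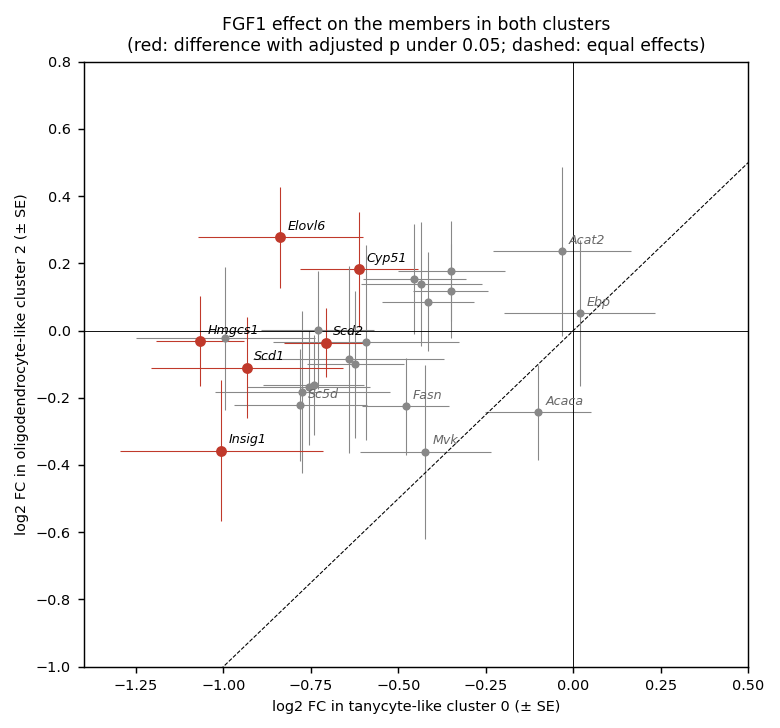
Log2 FC with FGF1 in tanycyte-like cluster 0 (x axis) against oligodendrocyte-like cluster 2 (y axis) for the 25 members tested in both, with bars of 1 SE, named where the difference had an adjusted p under 0.05 (red) or where a point lies at the edge. All but Acaca lie above the dashed line of equal effects, and Hmgcs1 (-1.07 against -0.03) and Elovl6 (-0.84 against 0.28) lie far from it.

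Between astrocyte-like cluster 1 and cluster 0, 1 of 28 members differed, against 3.01% of all genes. Srebf1, whose log2 FC was -0.35 in cluster 0 and 0.30 in cluster 1, was that member (difference 0.65, edgeR adjusted p 0.00202). In cluster 1 it stood at 169 to 307 CPM with FGF1 and 173 to 230 CPM with vehicle. Between cluster 2 and cluster 1, 1 of 27 differed, against 0.114% of all genes. That was Idi1 (difference 1.40, edgeR adjusted p 0.0018), which stood at 22.5 to 79.5 CPM with FGF1 and 44.7 to 71.8 CPM with vehicle in cluster 2. It was lost without FGF1 mouse 36 (edgeR adjusted p 0.183) and with DESeq2 (adjusted p 0.079). These 3 pairs share mice and clusters, so their differences are not separate evidence.

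In nuclei, 18 cell types were compared on Day 1. Median UMIs per nucleus on that day were 2029 to 2816 with FGF1 against 3178.5 to 3776 with vehicle, without overlap between mice, and the same held in tanycytes (2298 to 2846 against 3383.5 to 3799) and astrocytes (2386 to 2875 against 2984 to 3345.5). In tanycytes 1 of 8 members rose, against 5.38% of all genes that rose. This was Msmo1, which in cluster 0 of the Day 5 whole cells had fallen. FGF1 mice 1, 2 and 3 had 585, 469 and 285 CPM from 155, 56 and 17 UMIs, and vehicle mice 1, 2 and 3 had 72.3, 197 and 53.8 CPM from 8, 21 and 3 UMIs. All 3 FGF1 mice lay above all vehicle mice (log2 FC 2.01 ± 0.478, edgeR adjusted p 0.0199), a separation that 14.6% of all genes tested in tanycytes also had. The call was lost without FGF1 mouse 2 (2.06, adjusted p 0.054), without vehicle mouse 1 (1.72, adjusted p 0.157) or 3 (1.73, adjusted p 0.077) and with the batch as a block (2.08, adjusted p 0.083). The other 7 members tested in tanycytes ran from -0.52 for Scd2 to 0.61 for Srebf2, and Hmgcs1 was at 0.38. Markers of other cells also moved in tanycyte nuclei. Ependymal markers summed to 945 to 1024 CPM with FGF1 and 329 to 570 CPM with vehicle, astrocyte markers to 1260 to 2055 CPM against 3042 to 4343 CPM, and oligodendrocyte markers to 123 to 213 CPM against 276 to 505 CPM. Of the oligodendrocyte markers Mog and Aspa were at 0 in FGF1 mice and Opalin in vehicle mice. The part of these markers and of the depth per nucleus in the Msmo1 result was not tested.

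Ependymal nuclei, 13 to 23 per mouse, gave Msmo1 at 715, 237 and 478 CPM in FGF1 mice 1, 2 and 3 (24, 10 and 14 UMIs) and at 88.9, 124 and 28.6 CPM in vehicle mice 1, 2 and 3 (3, 4 and 1 UMIs). The groups did not overlap, as for 18.4% of the genes tested in these nuclei, and the counts of Msmo1 were below the filter of the main comparison. Without that filter edgeR gave a log2 FC of 2.46 (adjusted p 0.00053), and DESeq2 gave 2.52 (adjusted p 0.0167). In astrocyte nuclei Msmo1 stood at 327 to 626 CPM with FGF1 and 91.4 to 284 CPM with vehicle, with no overlap, as for 8.91% of all genes tested there, and it did not pass (log2 FC 1.21 ± 0.562, edgeR adjusted p 0.538). In nuclei labelled oligodendrocytes 4 of 15 members had an unadjusted p under 0.05, against 5.73% of all genes. These were Hmgcs1, Sqle and Srebf2 with log2 FC of 0.80, 0.94 and 0.90 and Acaca with -0.61, none passing in edgeR (adjusted p 0.831 to 0.869). For 5 of the 15 (Hmgcs1, Sqle, Msmo1, Insig1 and Srebf2) every FGF1 mouse lay above every vehicle mouse, against 5.91% of all genes. These nuclei held 6 neuron markers at 17134 to 20593 CPM over all 6 mice, close to the 19962 to 24570 CPM in neurons of no assigned type, and 9 oligodendrocyte markers at 1014 to 1923 CPM with FGF1 and 1852 to 2878 CPM with vehicle. The part of these markers in the values was not tested. No member passed in the 17 types other than tanycytes in edgeR, with 6 of 109 tests of members at an unadjusted p under 0.05 (5.50%), against 7.33% of the tests of all genes, and DESeq2 added the ependymal Msmo1 call alone.

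**Figure D5:**
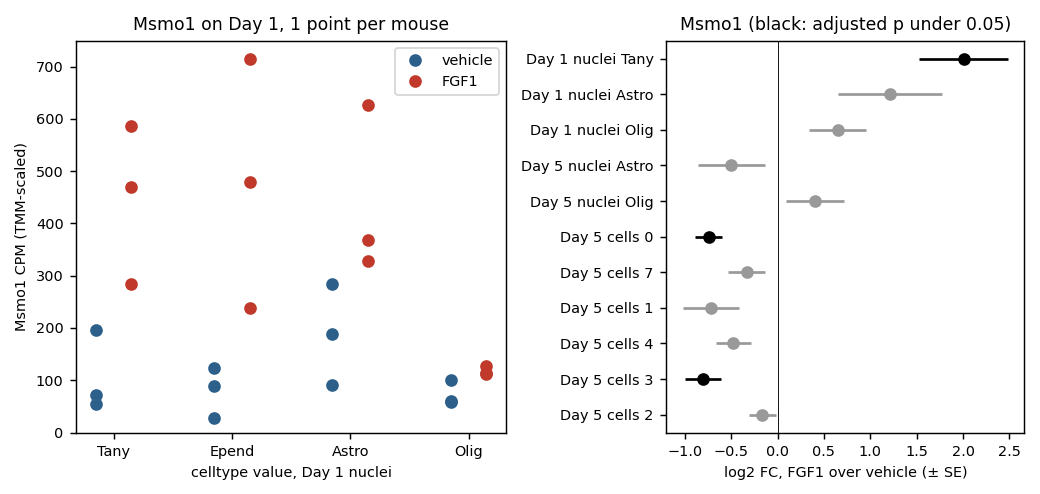
Left, Msmo1 in Day 1 nuclei (TMM-scaled CPM, from 0) in tanycytes (Tany), ependymal cells (Epend), astrocytes (Astro) and oligodendrocytes (Olig), with 1 point per mouse, vehicle in blue and FGF1 in red. Right, log2 FC of Msmo1 (± SE, x axis) in selected types and clusters, black where the adjusted p was under 0.05, with 2.01 in Day 1 tanycyte nuclei and -0.74 in Day 5 cluster 0.

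On Day 5, 0 members passed in the 11 nucleus types tested with edgeR, where each group had 2 mice, and DESeq2 also called 0. At an unadjusted p under 0.05 were 5 of 126 tests of members (3.97%), against 8.60% of those of all genes, namely Scd2 in COP (log2 FC 0.86), Fdft1 in n16.Rgs16/Vip neurons (-1.22), Insig1 in n29.Nr5a1/Adcyap1 neurons (-0.89), and Dhcr7 and Elovl6 in neurons of no assigned type (0.54 and 0.62). In astrocyte nuclei 17 of 21 members were below 0 (median -0.31), against 51.0% of all genes. Msmo1 there stood at 99.6 and 138 CPM in FGF1 mice and 162 and 168 CPM in vehicle mice (log2 FC -0.50, edgeR adjusted p 0.585). The change of the FGF1 effect from Day 1 to Day 5, tested in 11 types, passed for 0 members in edgeR and in DESeq2. For Msmo1 in astrocyte nuclei it was -1.67 (edgeR adjusted p 0.608). Tanycyte nuclei had too few mice on Day 5 for this test. In the metadata, Day 1 nuclei were in batches 3, 4 and 5 and Day 5 nuclei in batches 1 and 2. A change by day therefore cannot be told apart from a change by batch. Whole cells and nuclei came from different mice and preparations, so the rise of Msmo1 on Day 1 and its fall on Day 5 were not compared by a test.

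Around the members, 49 further genes of the same pathways were read from the same fits. In cluster 0, of 42 tested, 3 fell, against 2.64% of all genes, and 2 rose, against 2.64% as well. Acss2, which makes acetyl-CoA from acetate, fell (log2 FC -1.25, edgeR adjusted p 0.000317), as did Acsl6 (-0.55, 0.0164) and Acsl3 (-0.48, 0.0303), which couple long-chain fatty acids to CoA. Abca1, the cholesterol efflux pump and a target of the sterol-sensing liver X receptors, rose (0.51, 0.0292), and Fabp7, the brain fatty acid binding protein, rose as well (0.94, 0.000156). Of 5 genes of SREBP processing 0 passed in edgeR, with a median log2 FC of 0.01.

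Abca1 also rose in astrocyte-like clusters 1 (log2 FC 0.96, edgeR adjusted p 0.000383) and 4 (0.73, 0.0383) and in ependymal-like cluster 6 (0.74, 0.0145). Of the list, 1 of 40 tested rose in cluster 1, 2 of 30 in cluster 4 and 1 of 30 in cluster 6. The shares over all genes were 0.221%, 0.218% and 0.535%. Fabp7 rose in clusters 4 (1.04), 5 (1.54) and 7 (0.89) and, in Day 5 nuclei, in astrocytes (2.02, edgeR adjusted p 0.0323), and its relative Fabp5 rose in COP-like cluster 9 (0.93). In Day 1 ependymal nuclei Acadl, an acyl-CoA dehydrogenase of fatty acid oxidation, rose (2.01, edgeR adjusted p 0.0035). It was 1 of 4 tested there, against 10.2% of all genes that rose. In Day 5 nuclei Mylip, a ubiquitin ligase induced by sterols that removes lipoprotein receptors, fell in nuclei labelled COP (-0.99) and oligodendrocytes (-1.13) and in n06.Oxt neurons (-1.26) and n29.Nr5a1/Adcyap1 neurons (-0.95), with edgeR adjusted p from 0.00412 to 0.0408. There 1 gene of the list fell among 27, 37, 5 and 33 tested, against 0.434%, 0.119%, 0.103% and 0.270% of all genes. Neuron markers in the Day 5 nuclei labelled COP summed to 15619 to 19049 CPM, and COP markers to 2896 to 3915 CPM with FGF1 and 739 to 743 CPM with vehicle, and their part was not tested. Elovl7, a fatty acid elongase, passed in COP too, but on 0 and 1 UMI in the 2 vehicle mice against 20 and 59 in the 2 FGF1 mice, so no fold is given.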

How the data were processed

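Droplet libraries (10x 3' v2) were made by the authors from whole hypothalamic cells and nuclei, and the submitters' processing notes name Cell Ranger 1.2, Seurat and GRCm38. The values used are raw UMI counts per gene and barcode as deposited, with sample, batch and cluster or cell type from the deposited metadata, which also hold the mitochondrial and ribosomal percent per barcode as the authors computed it. All 54890 cells and 24965 nuclei deposited were read. Nuclei that the metadata label filtered_by_sil were left out of every comparison and of the levels by type. Per the methods, doublets and neurons had been removed from the whole cells before deposit, no doublet caller was run on nuclei, and none was run here. The deposited normalized values were not used.

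Pseudobulk sums of counts were made for each mouse within each type. A mouse entered with at least 10 cells, and a type with 2 or more mice per group. Genes passed filterByExpr, libraries were TMM-scaled, and edgeR 4.0.16 in R 4.3.3 tested FGF1 against vehicle with no covariate (robust glmQLFit, then glmQLFTest), with Benjamini-Hochberg adjustment over all genes of that type. SE is the one implied by the F statistic. Differences between clusters were interactions with the mouse as a block, and between days interactions over 4 groups of nuclei. A cluster was named from a list when at least 3 of its fixed markers passed. A marker passed with a UMI in at least 10% of the cluster's cells and a level at least 2 times the median over clusters. The same marker could pass in more than 1 cluster. Scripts were tested on simulated data. Alternatives were DESeq2 1.42.0, RLE scaling, no filter, a minimum of 20 cells, leaving out each mouse, barcodes within 20% (cells) or 5% (nuclei) mitochondrial and ribosomal UMIs, a batch or replicate block, and merged clusters. Per mouse values are given for members that passed, at most 10 per comparison by smallest adjusted p. The members and lists were chosen with earlier results of these data known. The vehicle sample titled 35_FP was taken as 35_PF, as its treatment is given as vehicle.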

Additional observations from a re-analysis of the deposited data

Results flagged for a closer look

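Among 44 groups of values tested for a sample far from the others, 2 had one, and chance flags about 1 in 20 groups. Sqle in cluster 0 was lowest in FGF1 mouse 6, at 26.6 CPM, apart from the other 5 FGF1 mice. That mouse gave 167 cells in cluster 0, against 713 to 1572 in the other FGF1 mice, so its levels there are less precise. Idi1 in cluster 1 was highest in vehicle mouse 35, at 119 CPM, apart from the other 5 vehicle mice.

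In 8 cases the FGF1 effect on a member differed between 2 clusters by the interaction test. Between clusters 2 and 0 the differences in log2 FC were 1.01 for Hmgcs1, 0.64 for Scd2, 0.82 for Scd1, 1.14 for Elovl6, 0.60 for Insig1 and 0.81 for Cyp51. Between clusters 1 and 0 the difference was 0.65 for Srebf1, and between clusters 2 and 1 it was 1.40 for Idi1. Over all genes, 0.943% were higher for clusters 2 minus 0, 3.01% differed for 1 minus 0 and 0.114% for 2 minus 1. Cyp51 was lost in 10 and Insig1 in 8 of the 12 leave-one-out fits.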

How the results depend on the processing

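No log2 FC called in the main comparisons changed sign under any alternative run. Counts of members called moved by over 1.5 times as follows. With DESeq2, 0 were called in cluster 1, where its own filter left 7 members with an adjusted p, 2 in cluster 6, 1 in cluster 7, 1 in Day 1 ependymal nuclei, 2 for clusters 1 minus 0 and 0 for clusters 2 minus 1. Without a filter on low counts, 0 were called in cluster 10, 0 in cluster 11, 2 in cluster 6, 1 in cluster 7 and 1 in Day 1 ependymal nuclei. RLE scaling gave 2 for clusters 1 minus 0, a minimum of 20 cells gave 4 in cluster 11, and the mitochondrial and ribosomal limit gave 2 in cluster 6. With the batch as a block, chosen after seeing the data for nuclei, 5 were called in cluster 1, 2 in cluster 6, 1 in cluster 7 and 0 in Day 1 tanycyte nuclei. With clusters of 1 name merged, 14 were called in cluster 1 and 1 in cluster 2, where the median log2 FC of the members moved to 0.14. The cause was not tested. Apart from merged cluster 1 (6.06% of all genes lower) and cluster 11 with 20 cells (2.98%), these counts lack the share over all genes. They cannot tell a change in the members from a general gain or loss of calls.

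Leaving out 1 mouse at a time gave 7 to 15 calls in cluster 0, 1 to 3 in cluster 1, 0 to 4 in clusters 3 and 11, 0 to 3 in clusters 4 and 7, 0 to 1 in cluster 5, 1 to 2 in cluster 6, 1 to 1 in cluster 10, 0 to 1 in Day 1 tanycyte nuclei, 0 to 2 in Day 1 ependymal nuclei, 1 to 2 for clusters 1 minus 0, 3 to 7 for clusters 2 minus 0 and 1 to 2 for clusters 2 minus 1. Counts rose to 2 or more in cluster 4 without FGF1 mouse 6 or vehicle mouse 22, in cluster 6 without FGF1 mouse 28 and in cluster 11 without FGF1 mouse 6 or 28 or vehicle mouse 27 or 35, and to 1 in cluster 5 without FGF1 mouse 28. In Day 1 ependymal nuclei they rose without FGF1 mouse 2 or any vehicle mouse. Over these fits the median log2 FC of the members in cluster 0 ran from -0.69 to -0.58. Of the calls for single members, 288 were kept and 76 lost when a mouse was left out. The leave-one-out counts also stand without the share over all genes in each fit.

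Same-numbered mice of Day 1 were compared in each of 12 cell types, so the 36 correlations repeat the same few pairs of mice. The deviations correlated from -0.60 to 0.64, and all 9 values over 0.1 came from FGF1 mouse 3 with vehicle mouse 3. For mice of the same batch they ran from -0.75 to 0.22, with 4 of 36 over 0.1. The numbers were not taken to pair the mice. With the replicate block, Msmo1 in tanycyte nuclei was at 2.13 (edgeR adjusted p 0.0202) and 1 member was called there.

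In Day 1 nuclei 8 members passed the count filter in tanycytes and 3 in ependymal cells, against 27 in neurons of no assigned type, and in whole cells 27 passed in cluster 0 and 3 in cluster 10. With 2 mice per group on Day 5, an absent call in nuclei does not show that a member did not change.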
